A study of Mus musculus with 4 samples.

Results

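The genes described here encode core subunits of the Polycomb repressive complexes PRC2 and PRC1 in mouse embryonic stem cells (mESCs). They were chosen by name, as the rows of the deposited expression table whose Ensembl identifier maps to Ezh1, Ezh2, Eed, Suz12, Jarid2, Mtf2, Aebp2, Ring1, Rnf2 or Cbx7. All 10 genes were found among the 37310 genes of the table, and all 10 passed the filter on low values. In Bmal1-/- mESCs, Suz12 transcripts were at 149.8% and Mtf2 transcripts at 153.6% of the wild-type level, and Cbx7 transcripts were at 81.8% of it. The transcripts of the other 7 genes lay between 85.9% and 115% of the wild-type level.

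Polycomb complexes keep developmental genes silent by modifying histones. PRC2 methylates histone H3 at lysine K27 through Ezh1 or Ezh2, which are active only when bound to Eed and Suz12, and it takes up one set of accessory subunits (Mtf2, Phf1 or Phf19) or another (Jarid2 and Aebp2). PRC1 ubiquitinates histone H2A through Ring1 or Rnf2, and its canonical form is brought to methylated H3 by a chromobox protein, in mESCs mainly Cbx7. In mESCs these complexes occupy the promoters of regulators of differentiation, the Hox genes among them.

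The study compared mRNA-seq of Bmal1-/- mESCs with that of their parental line to ask what the clock transcription factor Bmal1 does in pluripotent cells without a running circadian clock. Both groups were JM8 mESCs of the C57BL6/N strain, without feeder cells on gelatin, in N2B27 medium with LIF, the Mek inhibitor PD0325901 at 1 µM and the Gsk3 inhibitor CHIR99021 at 3 µM (2i + LIF). Wild-type mESCs and Bmal1-/- mESCs had 2 libraries each. The Bmal1-/- line was 1 clone, made with CRISPR/Cas9 against exon 5 of Bmal1 with both alleles mutated, so an effect of the mutation and a property of the clone cannot be told apart. The series design text calls the libraries biological replicates, and each label stands for 1 line, so the p-values measure only the spread between these samples.

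The libraries held 21504265 to 23329034 reads on genes, and 3 reads corresponded to a normalized value of 2.82 to 3.19. The transcript of the targeted gene, Bmal1 (Arntl), was still present at 678 and 733 in wild-type and 556 and 590.3 in Bmal1-/- mESCs (log2 fold change -0.30, SE 0.07, limma adjusted p = 0.00113). A value per gene does not show whether exon 5 is mutated, so it does not check the labels. The 8 naive pluripotency markers together came to between 109902 and 121404 in the 4 libraries, with Pou5f1 between 26483 and 29164. Of these 8 genes 4 were called higher in Bmal1-/- mESCs and 3 lower, beside 24.0% and 28.6% of all genes tested. The fibroblast gene Dcn and the neural progenitor gene Fabp7 were at 0 in all 4 libraries, each as the only gene of its list of 6. The neural genes Nes and Slc1a3, named after their values were seen, passed the filter on low values. Neither was called (-0.08 and 0.19 on the log2 scale). The summed value of 6 trophoblast markers was 1778 and 1787 in wild-type and 795 and 739 in Bmal1-/- mESCs, and that of 6 neural markers was 4052 and 3791 against 2257 and 2129. Each sum was mostly 1 gene of its list. Tfap2c had 1429 and 1444 in wild-type and 576 and 541 in Bmal1-/- mESCs, and Tubb3 had 2785 and 2512 against 1192 and 1088. Of these lists 3 of 3 trophoblast genes and 3 of 5 neural genes tested were called lower in Bmal1-/- mESCs, and 0 of either were called higher. The genes lower by at least 0.5 on the log2 scale were Tfap2c (-1.36), Eomes (-0.83) and Cdx2 (-0.74) of the trophoblast list, and Pax6 (-1.71), Map2 (-1.44) and Tubb3 (-1.22) of the neural list. Pax6 passed the filter on low values only through its wild-type libraries, so it had to be lower in Bmal1-/- mESCs. Of the 3 primed pluripotency markers tested, Lef1 was called lower (-1.21) and Dnmt3a higher (0.59). Dnmt3b, named after its value was seen, was called lower too (-0.26), so 1 was called higher and 2 lower. After the length correction described below, Dnmt3a was at 0.29, Lef1 at -1.20 and Dnmt3b at -0.29. The 6 fibroblast markers together came to between 69.5 and 108 in the 4 libraries, with Thy1 called higher (0.59). In bulk mRNA fewer cells of a type and less RNA per cell cannot be told apart, and the part of these markers in the results below was not tested.

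Suz12 and Mtf2 changed most and in the same direction, and the 250 bases upstream of their annotated starts are shown because Bmal1 binds DNA at E-boxes. The sequences are those of RefSeq (promoter table of assembly GRCm38.p6), placed on mm9 by an exact match, and the first of 2 annotated starts is given for Mtf2. Capitals mark an E2F-like motif (TTTGGCGC, TTTCGCGC or TTTCCCGC, either strand), which begins 219 bases before the start of Suz12. The Suz12 stretch is chr11:79806358-79806607 and the Mtf2 stretch chr5:108494443-108494692, both on the plus strand.
Suz12: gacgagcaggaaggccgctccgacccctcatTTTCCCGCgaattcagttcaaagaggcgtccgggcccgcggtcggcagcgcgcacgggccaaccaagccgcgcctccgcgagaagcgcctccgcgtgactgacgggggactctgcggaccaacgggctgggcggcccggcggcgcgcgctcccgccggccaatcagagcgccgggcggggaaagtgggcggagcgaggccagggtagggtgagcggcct
Mtf2: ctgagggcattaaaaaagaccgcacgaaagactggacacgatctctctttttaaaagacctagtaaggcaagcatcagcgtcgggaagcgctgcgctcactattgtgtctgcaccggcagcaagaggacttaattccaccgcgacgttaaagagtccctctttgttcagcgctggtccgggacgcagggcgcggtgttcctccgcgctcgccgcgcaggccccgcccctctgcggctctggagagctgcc
The E-box CACGTG was in 0 of the 14 promoter windows of the 10 genes, which run from 250 bases before to 50 bases after a start, and in 8.09% of the 27025 genes with such a window. The E2F-like motif was in windows of Ezh2 and Suz12 and in 2.12% of all genes. A D-box (TTATGTAA or TTACGTAA) was in none of the 14 windows and in 1.23% of all genes. These are matches of letters in a short window and say nothing of binding.

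Each library's value is a read count scaled by the authors, and differences were tested by limma on log2(value + 1) across the 14510 genes with a mean of at least 10, with Benjamini-Hochberg adjusted p-values. A gene is called here at an adjusted p under 0.05. Of the 10 genes 4 were called higher in Bmal1-/- mESCs (Suz12, Mtf2, Aebp2 and Jarid2), 4 lower (Cbx7, Ring1, Eed and Ezh2) and 2 not called (Ezh1 and Rnf2). Among all genes tested 24.0% were called higher, 28.6% lower and 52.6% in either direction. Of the 4770 genes with a mean of at least 1000, where 8 of the 10 Polycomb genes lie, 67.1% were called, so a call alone sets these genes little apart. Of the 10 genes 0 were called with a change over 2-fold, as were 7.21% of all genes (5.75% higher and 1.45% lower). The groups did not overlap for 8 of the 10 genes, as for 76.0% of all genes tested (34.6% higher and 41.4% lower). The median log2 fold change of the 10 genes was 0.03, beside -0.03 over all genes. What set Suz12 and Mtf2 apart was size: a call with an absolute log2 fold change of at least 0.5 was made for 18.3% of all genes (12.5% higher and 5.79% lower) and for 7.04% of those with a mean of at least 1000.

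**Figure D1:**
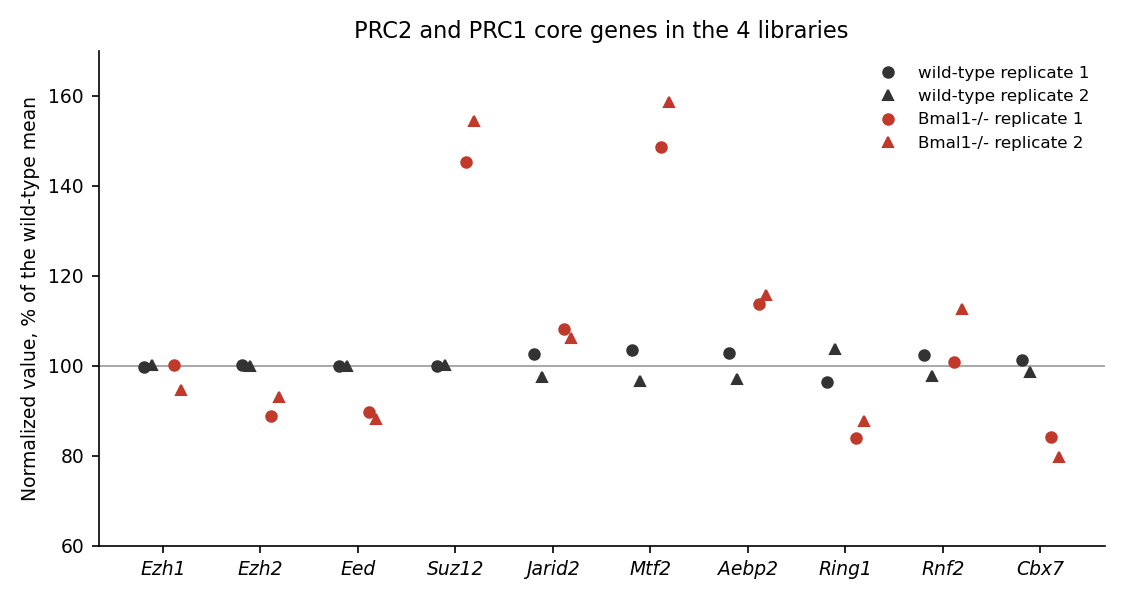
Normalized value of each Polycomb core gene in the 4 libraries, in percent of the mean of the 2 wild-type libraries (vertical axis). Circles are replicate 1 and triangles replicate 2, black for wild-type and red for Bmal1-/-. Both Bmal1-/- libraries stood far above wild-type for Suz12 and Mtf2 and below it for Cbx7, and the groups overlapped for Ezh1 and Rnf2.

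Of the catalytic subunits of PRC2, Ezh2, the main H3K27 methyltransferase of mESCs, was slightly lower in Bmal1-/- mESCs. Ezh2 (ENSMUSG00000029687, chr6:47480273-47545340, minus strand, mm9) reached 5246 and 5238 in wild-type and 4653 and 4878 in Bmal1-/- mESCs. Its values were lower in both Bmal1-/- libraries than in either wild-type library. The log2 fold change was -0.14 (SE 0.04, limma adjusted p = 0.00798). The call rested on Bmal1-/- replicate 1 (adjusted p = 0.130 without it), and it was also lost in DESeq2 (adjusted p = 0.0902), in limma without the intensity trend (0.124), without a filter on low values (0.0557), with equal library totals (0.121) and with quantile normalization (0.124). Ezh1 (ENSMUSG00000006920, chr11:101052429-101087777, minus strand), the less active paralog, had 963 and 968 in wild-type and 967 and 913 in Bmal1-/- mESCs. The groups overlapped, and the log2 fold change of -0.04 (95% interval -0.16 to 0.08, limma adjusted p = 0.596) was not called.

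Of the 2 scaffold subunits of PRC2, Suz12 was higher in Bmal1-/- mESCs, and Eed was slightly lower before any length correction. Suz12, which holds the complex together and binds its accessory subunits, is on chromosome 11 (ENSMUSG00000017548, chr11:79806608-79847625, plus strand). Its values were 8409 and 8417 in wild-type and 12219.7 and 12993 in Bmal1-/- mESCs. The wild-type libraries were nearly equal, and both Bmal1-/- libraries lay far above them. The log2 fold change was 0.58 (SE 0.04, limma adjusted p = 1.85e-10), higher than that of 87.7% of all genes tested. A lincRNA on the opposite strand, Gm16706, shares 178 bases of exon with Suz12 (3.60% of its exons), and its own values were 34.8 and 27.6 in wild-type and 55.4 and 81.1 in Bmal1-/- mESCs, small beside those of Suz12. The Suz12-like pseudogenes Gm14752 and Gm14745 on chromosome X were listed at 0 in all libraries. Eed (ENSMUSG00000030619, chr7:97103166-97129493, minus strand), which reads the methylated H3 and stimulates the enzyme, had values of 5939 and 5938 in wild-type and 5325 and 5234 in Bmal1-/- mESCs. Both Bmal1-/- libraries were lower, at 88.9% of the wild-type mean (log2 fold change -0.17, SE 0.04, limma adjusted p = 0.00116). The Eed call was lost in limma without the intensity trend (adjusted p = 0.0681). It was also lost after the length correction described below (-0.06, limma adjusted p = 0.194) and the correction for length and GC (-0.06, 0.115).

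The accessory subunits Mtf2, Aebp2 and Jarid2 were called higher in Bmal1-/- mESCs before any length correction, by very different amounts. Mtf2 (ENSMUSG00000029267, chr5:108494693-108538023, plus strand), a Polycomb-like protein that binds CpG-rich DNA and helps to recruit PRC2, had values of 6681 and 6238 in wild-type and 9592 and 10247 in Bmal1-/- mESCs. Both Bmal1-/- libraries lay above both wild-type libraries. The log2 fold change was 0.62 (SE 0.04, limma adjusted p = 3.17e-10), higher than that of 88.5% of all genes tested. The protein-coding gene Tmed5 on the opposite strand shares 395 bases of exon with Mtf2 (7.51% of its exons), and with values of 746 to 926 in the 4 libraries it was far below Mtf2. Aebp2 (ENSMUSG00000030232, chr6:140570970-140626993, plus strand), a zinc-finger protein that stabilizes PRC2, had 2960.3 and 2793 in wild-type and 3273 and 3331 in Bmal1-/- mESCs. Its groups did not overlap, and its log2 fold change was 0.20 (SE 0.05, limma adjusted p = 0.000888). Jarid2 (ENSMUSG00000038518, chr13:44824843-45017012, plus strand), which recruits PRC2 and is itself methylated by it, had 5640.4 and 5362 in wild-type and 5951 and 5842 in Bmal1-/- mESCs. Both Bmal1-/- libraries were above both wild-type libraries, and the call was narrow (log2 fold change 0.10, SE 0.04, limma adjusted p = 0.0457). The Jarid2 call was lost in limma without a filter on low values (adjusted p = 0.123), at a mean of at least 1 (0.0867) and without the intensity trend (0.229). With a library left out, the log2 fold change of Jarid2 ranged from 0.06 to 0.14.

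Of the catalytic subunits of PRC1, Rnf2 (Ring1b), the main H2A ubiquitin ligase of mESCs, showed no called difference. Rnf2 (ENSMUSG00000026484, chr1:153316536-153347953, minus strand) had 3143 and 3003 in wild-type and 3098 and 3459 in Bmal1-/- mESCs. The groups overlapped, with Bmal1-/- replicate 1 between the wild-type libraries (log2 fold change 0.09, 95% interval -0.01 to 0.20, limma adjusted p = 0.135). Leaving out wild-type replicate 1 (0.12, adjusted p = 0.0310) or Bmal1-/- replicate 1 (0.17, adjusted p = 0.0257) made it a call. Without wild-type replicate 2 it was 0.06 (adjusted p = 0.349), and without Bmal1-/- replicate 2 it was 0.01 (adjusted p = 0.888). Its paralog Ring1 (ENSMUSG00000024325, chr17:34157737-34161625, minus strand) had 316 and 339.9 in wild-type and 275 and 288 in Bmal1-/- mESCs. Both Bmal1-/- libraries were lower, and the log2 fold change of -0.22 (SE 0.09, limma adjusted p = 0.0483) had the highest adjusted p of the 8 calls. The Ring1 call was lost in edgeR (adjusted p = 0.0838) and DESeq2 (0.342) on the whole reads. In limma it was lost without a filter on low values (adjusted p = 0.0902), at a mean of at least 1 (0.0719) and with a pseudocount of 10 (0.0507). It was also lost in limma with median-ratio size factors (0.0663), with equal library totals (0.154) and without the intensity trend (0.0762). With a library left out, the log2 fold change of Ring1 ranged from -0.27 to -0.17.

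Cbx7 (ENSMUSG00000053411, chr15:79746237-79801549, minus strand), the chromobox protein through which canonical PRC1 binds methylated H3 in mESCs, was lower in Bmal1-/- mESCs. Its values were 4291 and 4181 in wild-type and 3561 and 3372 in Bmal1-/- mESCs. The gap between the groups was larger than the gap within either group. The log2 fold change was -0.29 (SE 0.04, limma adjusted p = 1.24e-05), with 18.9% of the genes tested below it. Suz12, Mtf2 and Cbx7 kept their direction and their call under all 16 other settings, the length corrections below aside, with ranges of 0.54 to 0.64, 0.57 to 0.68 and -0.33 to -0.23 on the log2 scale.

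The differences between the groups moved with transcript length over the whole table. With genes sorted into 5 bins by the longest annotated transcript, the median log2 fold change of all genes tested went from -0.17 in the shortest bin through -0.12, -0.06 and 0.00 to 0.17 in the longest. A smaller trend with length also lay between the wild-type libraries. There the median difference of replicate 2 from replicate 1 went from 0.04 in the shortest bin to -0.05 in the longest. Its sign depends only on which replicate is subtracted from the other. Base composition moved with the difference as well, with medians from 0.04 in the bin of genes lowest in GC to -0.12 in the highest. Over these bins the median difference of Bmal1-/- replicate 2 from replicate 1 went from 0.05 to -0.06. The lowest bin held Mtf2 (38.2% GC), Suz12 (41.6%) and Aebp2 (42.1%), called higher, and Rnf2 (39.1%), not called. The highest bin held Cbx7 (57.5%) and Ring1 (60.7%), both called lower. Ezh2, Eed, Jarid2 and Ezh1 lay in the bins between. The Polycomb genes with short transcripts were among those called lower (Eed, 2065 bp, Ring1, 2552 bp, and Ezh2, 2652 bp), and the 2 longest were called higher (Aebp2, 5940 bp, and Jarid2, 8353 bp).

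**Figure D2:**
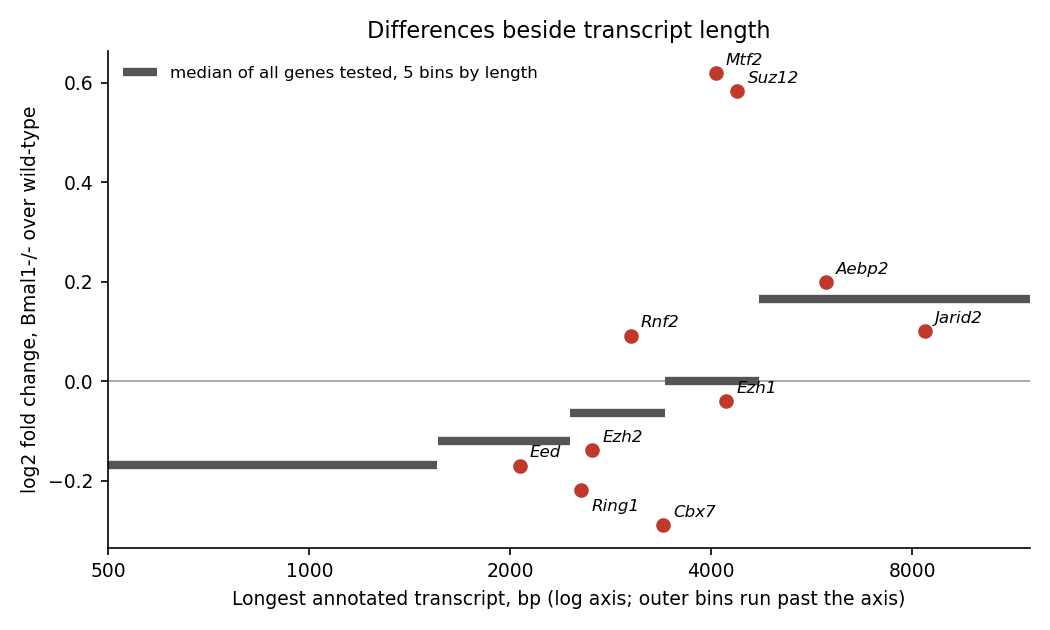
Log2 fold change of each Polycomb core gene (red points, vertical axis) against the length of its longest annotated transcript in bp (horizontal log axis). Grey bars are the medians of all genes tested in 5 bins by length, from -0.17 to 0.17. Suz12, Mtf2 and Cbx7 lie farthest from the bars, whereas Eed, Ezh2, Aebp2, Jarid2 and Ezh1 lie close to them.

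A correction of each library for transcript length by a loess curve, chosen after seeing the data, separated the 10 genes. After it, Suz12 (0.54, limma adjusted p = 1.16e-12), Mtf2 (0.60, adjusted p = 7.04e-13) and Cbx7 (-0.26, adjusted p = 6.79e-06) were nearly as before. Ezh2 (-0.07, limma adjusted p = 0.165), Eed (-0.06, 0.194), Aebp2 (0.06, 0.214) and Ring1 (-0.14, 0.210) were no longer called. Jarid2 turned from higher to lower (-0.15, limma adjusted p = 0.00169), and Rnf2 became a call (0.14, adjusted p = 0.0150). With a correction for length and GC together, Suz12 was at 0.50, Mtf2 at 0.54 and Cbx7 at -0.22, Jarid2 was at -0.10 and Ezh2 at -0.08 (limma adjusted p = 0.0307). Whether the length trend arose in the RNA, the libraries or the cells was not tested, and a correction also takes out any change in the cells that goes with length.

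**Figure D3:**
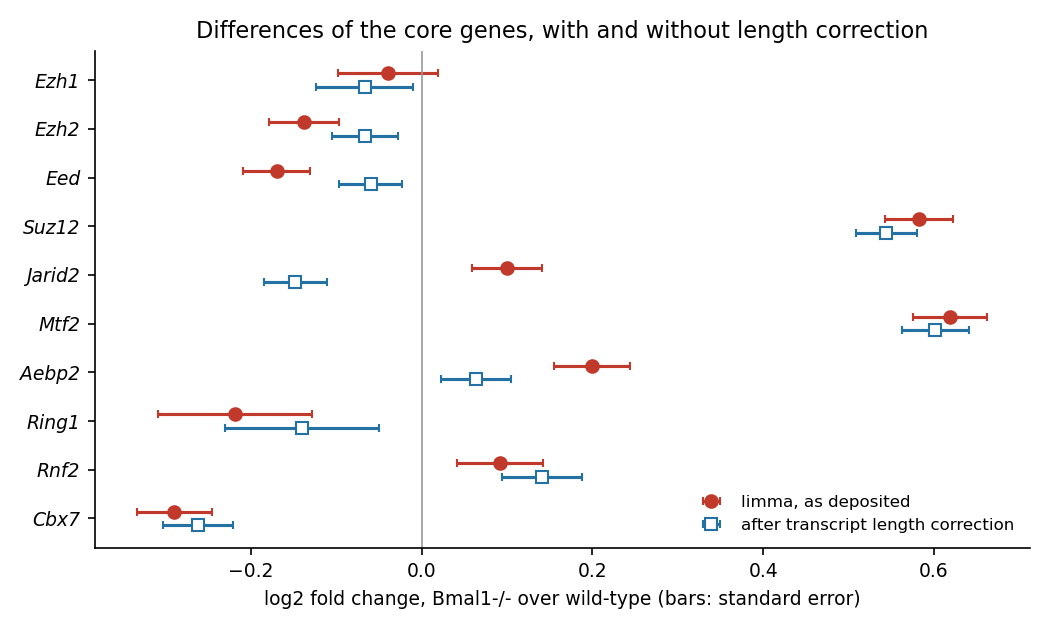
Log2 fold change of the Polycomb core genes, Bmal1-/- over wild-type, with standard errors as bars. Red circles are the limma values on the deposited table and open blue squares the values after correction for transcript length. Suz12, Mtf2 and Cbx7 changed little between them, while Jarid2 went from 0.10 to -0.15.

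Between genes, levels were compared as normalized value per kilobase (kb) of annotated exon. In wild-type mESCs the order of these levels was Eed (2677 on average), Suz12 (1701), Mtf2 (1227), Cbx7 (1118), Rnf2 (1015), Ezh2 (846), Jarid2 (566), Aebp2 (329), Ezh1 (129.7) and Ring1 (101). Neighbours in this order did not overlap between the 2 wild-type libraries, though Cbx7 (1132 and 1103 per kb) and Rnf2 (1038 and 992 per kb) were close. In Bmal1-/- mESCs Suz12 (2549 per kb on average) stood above Eed (2380.2) and Rnf2 (1083) above Cbx7 (915), and the other ranks were as in wild-type. The order depends on the length used: per kb of the longest transcript Ezh2 came second in wild-type mESCs, at 1977.

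**Figure D4:**
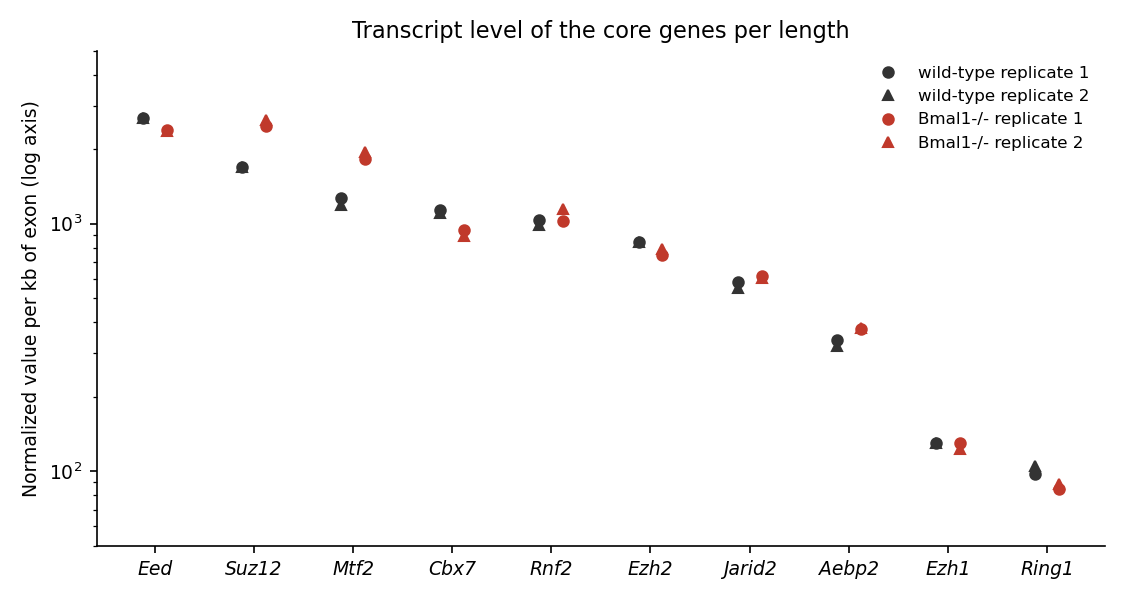
Normalized value per kb of exon (vertical log axis) of each Polycomb core gene in the 4 libraries, ordered by the wild-type mean. Circles are replicate 1 and triangles replicate 2, black for wild-type and red for Bmal1-/-. Suz12 lay below Eed in both wild-type libraries and above it in both Bmal1-/- libraries.

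Ratios of subunits within a library do not depend on the scaling of that library. They were not corrected for the length trend, and Suz12 (4373 bp) and Eed (2065 bp), like Mtf2 (4060 bp) and Jarid2 (8353 bp), differ in length. After length correction the log2 fold changes were 0.54 for Suz12, -0.06 for Eed, 0.60 for Mtf2 and -0.15 for Jarid2. Those of Rnf2 and Ring1 were 0.14 and -0.14, and those of Ezh2 and Ezh1 were -0.07 and -0.07. The ratio of Suz12 to Eed, taken per kb, was 0.635 and 0.636 in wild-type and 1.03 and 1.11 in Bmal1-/- mESCs, a difference of 0.75 on the log2 scale. Mtf2 over Jarid2 was 2.19 and 2.15 in wild-type and 2.98 and 3.24 in Bmal1-/- mESCs (0.52 on the log2 scale). Both of these ratios were higher in both Bmal1-/- libraries. Rnf2 over Ring1 went from 10.6 and 9.46 to 12.1 and 12.9 (0.31 on the log2 scale). Ezh2 over Ezh1 was 6.54 and 6.50 in wild-type and 5.78 and 6.42 in Bmal1-/- mESCs, a log2 difference of -0.10 that was smaller than the gap between the Bmal1-/- libraries. The groups did not overlap for any of the 4 ratios, and each had an exact permutation p of 0.333 (2-sided), the smallest that 2 libraries against 2 allow, so none could pass a threshold of 0.05.

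Summed per kb, the PRC2 methyltransferases Ezh1 and Ezh2 came to 976 and 975.3 in wild-type and 881 and 909.8 in Bmal1-/- mESCs. The Polycomb-like subunits Mtf2, Phf1 and Phf19 came to 1428 and 1312 in wild-type and 1939 and 2064 in Bmal1-/- mESCs, nearly all of it Mtf2. Jarid2 and Aebp2 together came to 919 and 871 against 987 and 982. The ubiquitin ligases Ring1 and Rnf2 came to 1135 and 1097 against 1108 and 1231, with overlapping groups.

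Of 47 other Polycomb genes tested, from 5 lists, 18 were called higher and 9 lower, with a median log2 fold change of 0.12. After correction for transcript length these counts were 9 and 10, and the median was -0.03. Genes named from here on with a log2 change under 0.5, and Cdkn2a, were chosen after their values were seen.

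Of 6 other PRC2 genes tested, 1 was called higher and 2 lower (median -0.15). The one called higher was Lcor, whose locus also encodes the PRC2 subunit Pali1, with 172 and 127 in wild-type and 240.5 and 229 in Bmal1-/- mESCs (log2 fold change 0.66, SE 0.13, limma adjusted p = 0.000221). The Bmal1-/- libraries were higher, and the change was 0.59 after length correction. The genes called lower were the histone chaperone gene Rbbp7 (-0.23) and the Polycomb-like gene Phf1 (-0.29), and 1 gene of the list was called lower without wild-type replicate 1, Bmal1-/- replicate 1 or Bmal1-/- replicate 2. Rbbp4 (-0.07), Epop (-0.05) and Phf19 (-0.25) were not called, so of the 3 Polycomb-like genes only Mtf2 was called higher. After length correction Phf1 was not called (-0.20, limma adjusted p = 0.117), whereas Rbbp4 was called lower (-0.13, limma adjusted p = 0.00284). Ezhip, an inhibitor of PRC2, held at most 3.81 in any library and was not tested.

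Of 10 other canonical PRC1 genes, 2 were called higher and 2 lower (median 0.04), with 1 called lower without wild-type replicate 2 or Bmal1-/- replicate 2. Phc2, 1 of the 3 polyhomeotic genes whose proteins make PRC1 cluster, had 609 and 609.7 in wild-type and 393 and 393 in Bmal1-/- mESCs. Its log2 fold change of -0.63 (SE 0.07, limma adjusted p = 4.14e-07) was the lowest of these 47 genes, and it was -0.64 after length correction. Phc1, the polyhomeotic gene with most reads in mESCs, was called higher (0.27, limma adjusted p = 8.63e-06), and Phc3 was called higher as well (0.37) but was at 0.03 after length correction. Among the other chromobox genes described here, Cbx6 was called lower (-0.17), and Cbx2 (-0.04) and Cbx8 (0.19) were not called. The ring-finger genes Pcgf2 (-0.06) and Bmi1 (0.12), whose proteins pair with Ring1 or Rnf2 in canonical PRC1, were not called either.

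Of 19 genes of variant PRC1, whose complexes lack Cbx7 and its canonical relatives, 9 were called higher and 5 lower (median 0.07), with 3 called lower without Bmal1-/- replicate 1. Those called lower were Cbx3 (-0.34), Auts2 (-0.33), Hdac2 (-0.15), Hdac1 (-0.15) and L3mbtl2 (-0.13). Kdm2b, which targets the Pcgf1 form of PRC1 to CpG islands, had 2672 and 2616 in wild-type and 4495 and 4299 in Bmal1-/- mESCs. Its Bmal1-/- values were far above those of wild-type (0.73, SE 0.04, limma adjusted p = 2.07e-11), and the change was 0.64 after length correction. Pcgf1 itself, the partner of Kdm2b, was not called (0.07), but after length correction it was called higher (0.27, limma adjusted p = 0.00623). Mga, the subunit of the Pcgf6 form with the longest transcript of this list (13931 bp), was called higher at 0.38 and was at -0.04 after length correction.

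**Figure D5:**
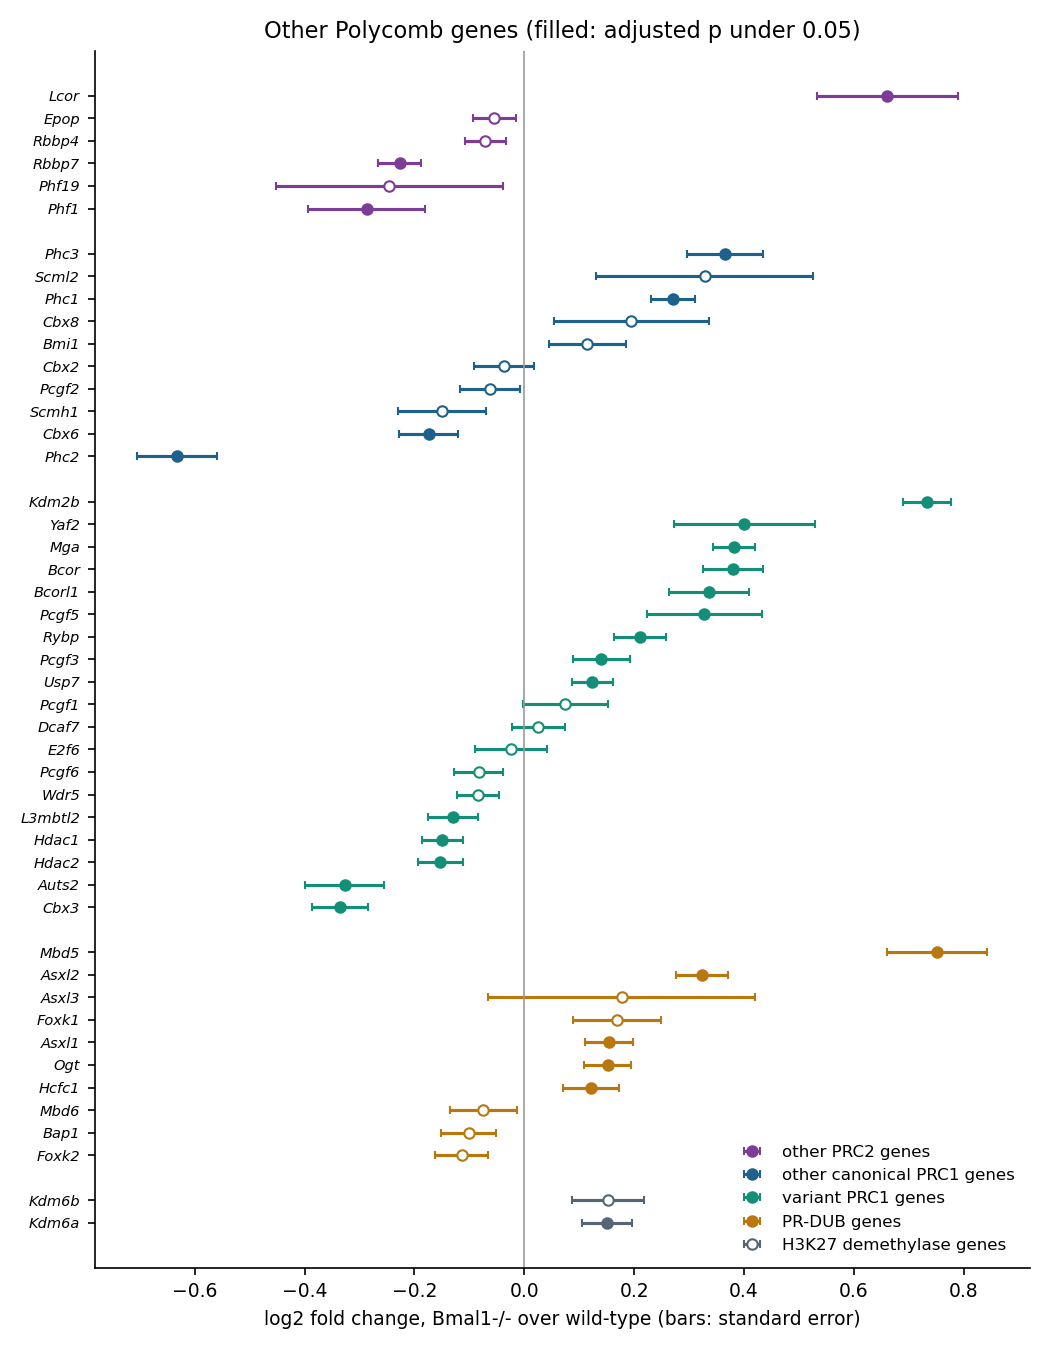
Log2 fold change of 47 other Polycomb genes, Bmal1-/- over wild-type (horizontal axis), with standard errors as bars, by list (colour). Filled points passed an adjusted p under 0.05 in limma without length correction. Mbd5, Kdm2b and Lcor had the highest values and Phc2 the lowest.

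Of 10 genes of PR-DUB, the complex that removes the PRC1 mark from H2A, 5 were called higher and 0 lower (median 0.15). This count moved with length, since after length correction 1 was called higher and 2 lower. Without wild-type replicate 2 the counts were 3 higher and 2 lower, and without Bmal1-/- replicate 2 they were 3 and 0. The gene called higher both before and after length correction was Mbd5. It had 295.0 and 249.6 in wild-type and 452 and 463 in Bmal1-/- mESCs (0.75, SE 0.09, limma adjusted p = 8.78e-07, and 0.62 after length correction). Bap1, the deubiquitinase itself, was not called (-0.10). Of the H3K27 demethylase genes, Kdm6a had 2015 and 2022 in wild-type and 2248 and 2234 in Bmal1-/- mESCs (0.15, limma adjusted p = 0.00928), and Kdm6b had 1496 and 1334 against 1693 and 1457 (0.15, limma adjusted p = 0.0582). The groups overlapped for Kdm6b, and after length correction neither was called, with values of 0.02 and -0.02.

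Of 14 Trithorax genes, whose proteins methylate H3 at K4 and oppose Polycomb, 6 were called higher and 3 lower (median 0.07), and after length correction 3 were called higher and 4 lower (median -0.04). The long gene Kmt2c had 1829.9 and 1563 in wild-type and 3058 and 3105 in Bmal1-/- mESCs (0.87, SE 0.06, limma adjusted p = 1.41e-10), and its change was 0.38 after length correction. Kmt2a had 2303 and 2112 against 3226 and 3218 (0.55, limma adjusted p = 9.74e-09), and with 0.07 after length correction (limma adjusted p = 0.161) it was not called. Kmt2d, called higher at 0.32, was called lower after length correction (-0.22, limma adjusted p = 0.000994), and with length and GC corrected it was at -0.04 (limma adjusted p = 0.461).

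Of 53 genes that Polycomb is known to repress in mESCs, most of them developmental regulators, 30 passed the filter, 5 were called higher and 8 lower. Together 43.3% of the 30 were called, beside 52.6% of all genes tested (24.0% higher and 28.6% lower). The counts thus do not set this list apart. Among those lower were the endothelial and endodermal factor Sox7, with 46.4 and 52.1 in wild-type and 5.64 and 12.4 in Bmal1-/- mESCs (-2.41, SE 0.34, limma adjusted p = 6.04e-06), and the blood regulator Gata2, with 101 and 138 against 33.8 and 42.0 (-1.62, SE 0.19, limma adjusted p = 7.35e-07). Olig3 (-2.65), Pax6 (-1.71) and Eomes (-0.83) were called lower as well. Sox7, Olig3 and Pax6 passed the filter only through their wild-type libraries and had to be lower in Bmal1-/- mESCs. Their Bmal1-/- means were 9.02, 3.77 and 9.46, under the filter of 10. The endoderm factor Sox17 went the other way, with 10.5 and 14.9 against 32.9 and 30.5 (1.27, SE 0.31, limma adjusted p = 0.00195), and Isl1 (0.69), Gata4 (0.55) and Msx2 (0.51) were also called higher. The count of genes called higher was 2 without Bmal1-/- replicate 1 and also 2 without Bmal1-/- replicate 2. Cdkn2a, the senescence locus repressed by Cbx7 and Polycomb in other cells, had 489.9 and 513 in wild-type and 337 and 344 in Bmal1-/- mESCs (-0.56, limma adjusted p = 5.84e-06).

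Of 39 Hox cluster genes, 15 passed the filter. Among all genes tested 24.0% were called higher, and 5.75% were called over 2-fold higher. Of those with a mean of 10 to 100, where Hoxa9, Hoxa10, Hoxc10, Hoxa7 and Hoxd9 lie, 18.1% were called over 2-fold in either direction. Of the 15 Hox genes 12 were called higher and 0 lower, 6 of them by over 2-fold. Without Bmal1-/- replicate 2 the count called higher was 6. Summed over the 39 genes, the value was 771 and 789 in wild-type and 1192 and 1225 in Bmal1-/- mESCs. Several of these genes passed the filter only through their Bmal1-/- libraries and had to be higher there, among them Hoxa9, which held 2.11 and 3.19 in wild-type, at or under the value of 3 reads, and 17.8 and 21.0 in Bmal1-/- mESCs. Hoxd9 had 29.5 and 26.6 in wild-type and 64.8 and 63.9 in Bmal1-/- mESCs (1.17, SE 0.22, limma adjusted p = 0.000128), and Hoxa7 had 20.0 and 19.1 against 62.0 and 42.0 (1.34, SE 0.26, limma adjusted p = 0.000229). Hoxa10 (1.72) and Hoxc10 (1.51) were also called higher. Both passed the filter only through their Bmal1-/- libraries, with wild-type means of 8.98 and 5.28, and had to be higher there. The counts of Hox genes called above include such genes. Hoxa5 (1.18), Hoxc4 (0.30) and Hoxb9 (-0.47) were not called, and the genes that did not pass the filter were not tested. No relation between the Hox genes and the Polycomb core genes was tested.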

How the data were processed

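The study made mRNA-seq of 4 samples, 2 wild-type and 2 Bmal1-/- (TRIzol RNA, TruSeq Stranded mRNA, paired 75-bp reads). The authors demultiplexed with bcl2fastq 2.18.0.12, trimmed with cutadapt 1.9.1 and aligned with STAR 2.5.2b to mm9 (per the labels), and scaled counts by TMM with NOISeq. The counter, its annotation and its strand setting are not given in the sources used here, so reads of overlapping antisense genes may be shared. The deposited values are a normalized signal, that is, reads per gene divided by 1 scaling factor per library. Whole reads were recovered for 100% of values (tolerance 0.01 of a read).

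Symbols, positions and lengths came from the GENCODE annotation of mm9, and 1 listed Trithorax gene, Kmt2b, was not matched. Of the 37310 genes, 13712 were at 0 in all libraries. The test was limma 3.58.1 in R 4.3.3 (lmFit, eBayes with intensity trend) on log2(value + 1), without covariates, on genes whose mean over the libraries reached 10, adjusted over all 14510 genes tested. On this scale, fold changes of genes with few reads come out too small. Since the values are not counts, edgeR 4.0.16 and DESeq2 1.42.0 on the recovered reads were alternatives, beside other filters (none, mean of at least 1 or 100), pseudocounts (0.5 or 10), scalings, limma without the trend, the replicate block and each library left out in turn. Corrections for transcript length and for length and GC (loess, the latter on 13239 genes) were added after seeing the data. The limma, edgeR and DESeq2 fits without these corrections were tested on simulated data.

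Genes named are the 10 core genes, Arntl, and in each other list the genes called with an absolute log2 fold change of at least 0.5, at most 5 per direction, plus all genes of lists of 2. Genes outside this rule are named as chosen after their values were seen. The members and lists were chosen with earlier results of these data known. Ratios were compared by an exact permutation test. A gene withheld from the lists, and the ratio and sum that need it, are not reported here.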

Additional observations from a re-analysis of the deposited data

How the results depend on the processing

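For the 10 core genes, the count called higher (4) was 2 in limma without the intensity trend and 2 with the length and GC correction, and ranged from 3 to 5 with a library left out. The count called lower (4) was 2 without a filter on low values, 2 with equal library totals, 1 in limma without the trend, 2 in DESeq2, 2 with the length correction and between 2 and 4 with a library left out. Their median log2 fold change (0.03) was 0.0413 with median-ratio size factors, 0.0864 with equal totals, 0.0688 with quantile normalization, 0.0515 in edgeR, 0.0584 in DESeq2, -0.0629 with the length and -0.0600 with the length and GC correction, and 0.00305 to 0.0406 with a library left out. Of the 47 other Polycomb genes, 8 were called higher in limma without the trend, 9 with the length correction and 11 with the length and GC correction, while 5 were called lower without a filter, 5 with equal totals and 3 without the trend. Over all genes, 2515 were called lower without the trend and 2536 in DESeq2. At a mean of at least 100, 237 were over 2-fold higher and 81 lower, and a pseudocount of 10 gave 135 lower and quantile normalization 426. Ezh1 changed sign with equal totals (0.0208) and quantile normalization (0.0104), and ranged from -0.0809 to 0.00199 (without Bmal1-/- replicate 2) with a library left out. So did Jarid2 with the length (-0.15) and the length and GC correction (-0.10), Kdm6b with the first (-0.0209) and Kdm6a with the second (-0.0167). The cause of these shifts was not tested, beyond the fewer genes that a stricter filter leaves. The scalings moved the median of all genes by at most 0.06. The labels number the libraries of each group as experiments 1 and 2 without saying what an experiment shared, and samples of the same number did not deviate together (correlation -0.02). With this number as a replicate block, 4 core genes were called higher and 4 lower, and the log2 fold change of Kdm6b became a call (limma adjusted p = 0.00801). At this depth genes near 3 reads could not be compared.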
